A study of Mus musculus with 9 samples.

Results

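The chitinase-like genes Chil3 and Chil4 lie side by side on mouse chromosome 3, and deposited H3R2me2a peak lists were examined over both genes, the sequence between them and 50 kb on either side (chr3:106097554-106269479 in mm10, 171.9 kb). The 6 lists held 486 peaks there, of 1541235 on chromosomes 1 to 19 and X. The locus was chosen by measured values of Chil4, which has peaks at its gene ends in both wild-type lists and in neither Igf2bp2 knockout list, so the contrast of Igf2bp2KO with WT is described without a test. The positions of both genes in the RefSeq gene table (GRCm38.p6, the assembly behind mm10) matched the named segment: Chil3 runs over chr3:106147554-106167564 and Chil4 over chr3:106201491-106219479, both on the minus strand, so their start sites are at the higher coordinate.

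The cells were mouse bone marrow cells, called leukemia cells by the design text, grown with interleukin 3, interleukin 6 and stem cell factor. The groups were cells without Prmt6 (Prmt6KO), cells without Igf2bp2 (Igf2bp2KO) and wild-type cells (WT), with 2 libraries of chromatin immunoprecipitation and sequencing (ChIP-seq) each. The labels name no allele, strain or age of the animals. They do not say whether replicates are separate cultures, so every spread and p may be technical. The 3 input libraries, 1 per genotype, were not analysed here; the amount of DNA from a region and the amount of the mark on it cannot be told apart from these lists.

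Chil3 and Chil4 encode Ym1 and Ym2, secreted proteins with the fold of the chitinases but without their enzymatic activity. In mice they are known as products of macrophages activated by interleukin 4 and interleukin 13 through the transcription factor STAT6, and Chil3 is also made by myeloid precursors of the bone marrow. H3R2me2a is histone H3 carrying an asymmetrically dimethylated arginine close to the end of its tail. PRMT6 is its main writer, and the mark is known to oppose methylation of lysine 4 on the same tail. Igf2bp2 encodes a protein that binds m6A-modified RNA.

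The start regions of both genes are shown because peaks of WT and Prmt6KO lists lie on them. Each runs from 250 bases before to 30 bases after the RefSeq start (RefSeq promoter table, GRCm38.p6, minus strand, read in the direction of transcription). Capitals mark the TATA box letters TATAAA and the STAT site letters TTCNNNGAA.
Chil3: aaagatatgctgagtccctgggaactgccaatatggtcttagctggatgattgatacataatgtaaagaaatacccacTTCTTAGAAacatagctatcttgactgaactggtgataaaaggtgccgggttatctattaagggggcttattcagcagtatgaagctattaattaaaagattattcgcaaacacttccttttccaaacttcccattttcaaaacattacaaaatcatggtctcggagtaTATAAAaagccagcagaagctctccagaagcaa
Chil4: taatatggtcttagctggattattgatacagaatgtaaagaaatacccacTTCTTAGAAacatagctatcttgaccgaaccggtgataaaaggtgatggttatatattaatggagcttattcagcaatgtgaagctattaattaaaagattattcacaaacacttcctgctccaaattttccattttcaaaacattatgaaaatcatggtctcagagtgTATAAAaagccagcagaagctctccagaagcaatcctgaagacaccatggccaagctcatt
The Chil3 stretch is chr3:106167535-106167814 and the Chil4 stretch chr3:106219450-106219729. Of 251 bases that align between them, 231 are identical (92.0%), and 58 positions, most of them at the shifted ends, face a gap. TATAAA begins 3 bases before the annotated start of Chil3 and 31 bases before that of Chil4, and occurs on either strand in 13.1% of the 32851 start regions of the same length in the table. The STAT letters begin 172 and 200 bases before the starts, form a pattern that reads the same on both strands, do not overlap the TATA box and occur in 7.83% of start regions. The same letters with 1 more N in the middle, the form that STAT6 is known to prefer, were found in neither window and in 6.50% of start regions. The near-identity means that short reads from one start region may fit the other; how the aligner placed such reads is not stated, and its part in the values was not tested.

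Each peak has a summit height in fragments, the number of sequenced fragments stacked at its highest point. The lists have unlike backgrounds, the level each list treats as no enrichment, of 0.736 and 1.21 fragments in Prmt6KO, 1.45 and 1.34 in Igf2bp2KO and 1.46 and 1.44 in WT. Heights are therefore also given in multiples of the own background. The lowest summit that a list held anywhere was 2.72 and 2.48 times the background in Prmt6KO, 5.51 and 5.24 times in Igf2bp2KO and 2.74 and 2.78 times in WT, so the Igf2bp2KO lists hold none of the low peaks that the Prmt6KO and WT lists hold. One WT library stood apart from the rest of the series on the X chromosome, with a peak density relative to the autosomes of 0.182 in replicate 1, against 1.20 in replicate 2. Results without each library are given with the dependence on processing.

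Every list held more peaks in the locus than its mean density gives, although in Igf2bp2KO replicate 1 this is a single peak. Prmt6KO lists held 130 and 142 peaks there, Igf2bp2KO lists 1 and 4, and WT lists 103 and 106. At the mean density of each list 53.1 and 28.1 peaks would fall on this length in Prmt6KO, 0.0628 and 0.0798 in Igf2bp2KO, and 10.6 and 8.75 in WT. The ratio of observed to expected peaks was thus 2.45 and 5.05 in Prmt6KO, 15.9 and 50.1 in Igf2bp2KO, and 9.70 and 12.1 in WT. Prmt6KO lists held more peaks here than WT lists, but their excess over their own much longer lists was smaller, with no overlap between the groups. The entire lists held 812414 and 430225 peaks in Prmt6KO and 162454 and 133960 in WT. Across these libraries the ratio fell as the list grew longer, also within each genotype. On the log2 scale with 0.5 added to both numbers, the relative density was 1.80 ± 0.73 in Prmt6KO and 3.37 ± 0.22 in WT (SD, n = 2 each). The difference was -1.57 (two-sided exact permutation p = 0.3333, the smallest that 2 libraries against 2 allow), and both Prmt6KO libraries were below both WT libraries. WT values had a part in choosing the locus, so this test is not independent of that choice. The separation depends on how peaks are thresholded. Between Prmt6KO and WT lists of equal length, restricted to the highest summits with ties drawn at random, the difference was -0.83. With only summits of at least 6 times the own background, relative density was 2.49 and 4.23 in Prmt6KO, against 3.803 and 4.08 in WT, so Prmt6KO replicate 2 lay above both WT libraries and replicate 1 below them (two-sided exact permutation p = 1).

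The ratio for Igf2bp2KO rests on 5 peaks in all and on lists in which peaks are rare outside a few places. It was higher than in WT in both libraries as a plain ratio. With 0.5 peaks added to observed and expected numbers the difference from WT on the log2 scale was -1.19, since the expected number is far below that addition. No direction is read from it.

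Covered length gave the same order for Prmt6KO and WT. Peaks covered 28.0% and 34.5% of the locus in Prmt6KO, 0.125% and 0.569% in Igf2bp2KO, and 22.0% and 23.3% in WT. Over chromosomes 1 to 19 and X the lists covered 8.68% and 4.53% in Prmt6KO, 0.0174% and 0.0208% in Igf2bp2KO, and 1.66% and 1.39% in WT. Relative to that, coverage of the locus was 3.22-fold and 7.61-fold in Prmt6KO, against 13.2-fold and 16.8-fold in WT. The log2 difference was -1.59 (two-sided exact permutation p = 0.3333, the smallest possible). Like the density test, this test is not independent of the choice of the locus. Covered length also grows with the number of peaks, so it is not separate support. Part of the covered length comes from wider peaks, since the median width was 298 and 334 bp in Prmt6KO, 215 and 239 bp in Igf2bp2KO, and 297 and 319 bp in WT, where all peaks of the Prmt6KO lists had medians of 206 and 222 bp and those of both WT lists 222 bp. Igf2bp2KO peaks of the locus were narrower than their lists, which had medians of 320 and 300 bp. The widest peaks of the locus measured 1329 and 1382 bp in Prmt6KO, 215 and 300 bp in Igf2bp2KO, and 1342 and 1054 bp in WT.

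**Figure D1:**
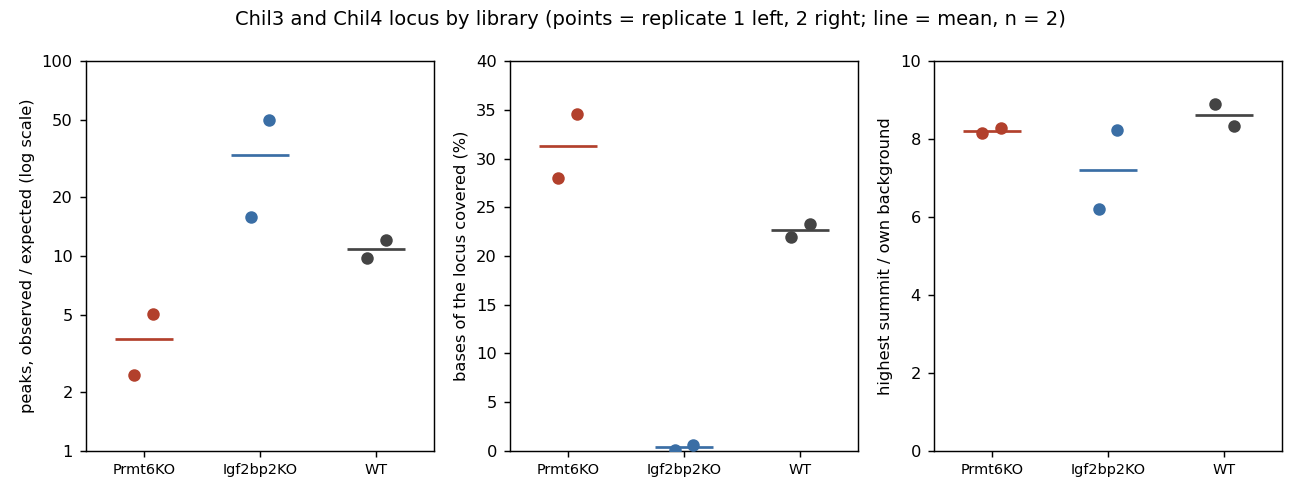
Values of the Chil3 and Chil4 locus in each library, with points for the libraries and a line for the mean of 2: peaks observed over expected from the list mean (log axis), bases covered by peaks (percent), and the highest summit in multiples of the own background. Prmt6KO has the lowest density ratio, Igf2bp2KO covers under 1% of the locus, and the highest summits lie between 6.20 and 8.90 times the background in all 6 libraries.

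Few stretches of the genome were as dense. The chromosomes were divided into 15294 further windows of the length of the locus. In WT, 6 and 3 of these held as many summits as the locus (103 and 106), and the median window held 10 and 8. In Prmt6KO, 11 and 1 windows reached its 130 and 142 summits, with medians of 54 and 29. A single window reached the locus in all 4 of these libraries. In Igf2bp2KO, 99.1% and 98.3% of windows held no summit, and 137 and 49 held at least the 1 and 4 of the locus. These are descriptions of a region that was singled out beforehand, and no p is attached to them.

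**Figure D2:**
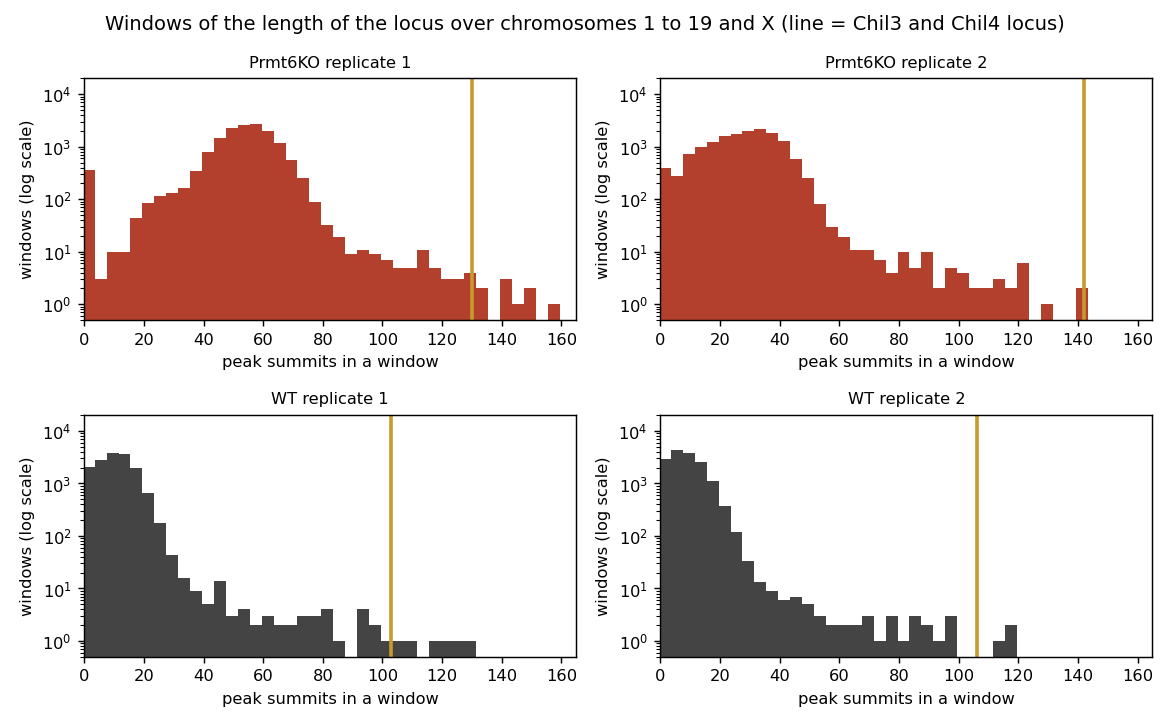
Number of peak summits in windows of 171.9 kb over chromosomes 1 to 19 and X (bars, windows on a log axis) for the Prmt6KO and WT libraries, with a vertical line at the Chil3 and Chil4 locus. The line stands at 130, 142, 103 and 106 summits, at the far right of each distribution.

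The excess was not confined to either gene. Chil3, 20.0 kb long, was touched by 13 and 24 peaks in Prmt6KO, 0 and 2 in Igf2bp2KO, and 14 and 17 in WT. Chil4, 18.0 kb long, was touched by 17 and 17 peaks in Prmt6KO, 0 and 1 in Igf2bp2KO, and 17 and 17 in WT. The 33.9 kb between the genes held 31 and 30 peaks in Prmt6KO, 0 and 1 in Igf2bp2KO, and 25 and 20 in WT. Per 10 kb, the libraries of Prmt6KO had 9.14 and 8.84 peaks between the genes against 6.496 and 11.99 in Chil3 and 9.45 and 9.45 in Chil4. WT had 7.37 and 5.90 between the genes, 6.996 and 8.495 in Chil3 and 9.45 and 9.45 in Chil4. The densities of the gene bodies and of the sequence between them differed by less than those of the 2 Prmt6KO libraries within Chil3. In WT, Chil4 was the densest segment of the locus in both libraries, at 15.3 and 18.6 times the list mean. Chil3 stood at 11.3 and 16.7 times, and the sequence between the genes at 11.9 and 11.6 times. In WT replicate 2 both genes were touched by 17 peaks, and Chil4 is the shorter. The locus was chosen through WT peaks of Chil4, so this rank is not independent of that choice. In Prmt6KO the densest segment was Chil4 in replicate 1 (3.06 times) and Chil3 in replicate 2 (7.34 times).

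The flanks were unlike each other. The 50 kb beyond Chil4 held 42 and 46 peaks in Prmt6KO, 1 and 0 in Igf2bp2KO, and 30 and 32 in WT. The 50 kb on the Chil3 side held 28 and 28 in Prmt6KO, 0 and 0 in Igf2bp2KO, and 21 and 23 in WT. Chia1, the gene of the acidic mammalian chitinase, an active enzyme, is the single other RefSeq gene of the locus and lies in that flank (chr3:106113382-106132118). Chia1 was touched by 11 and 9 peaks in Prmt6KO, 0 and 0 in Igf2bp2KO, and 7 and 7 in WT, which is 1.90 and 2.94 times the list mean in Prmt6KO and 6.05 and 7.34 times in WT. Peaks thinned out towards the lower edge of the locus. The last 10 kb inside that edge held 5 and 3 summits in Prmt6KO, 0 and 0 in Igf2bp2KO, and 1 and 1 in WT, and the first 10 kb outside it 4 and 4, 0 and 0, and 2 and 0. At the upper edge the density went on, with 6 and 7 summits in Prmt6KO and 4 and 3 in WT inside, and 5 and 6 in Prmt6KO and 6 and 8 in WT outside; both Igf2bp2KO lists had 0 on either side.

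**Figure D3:**
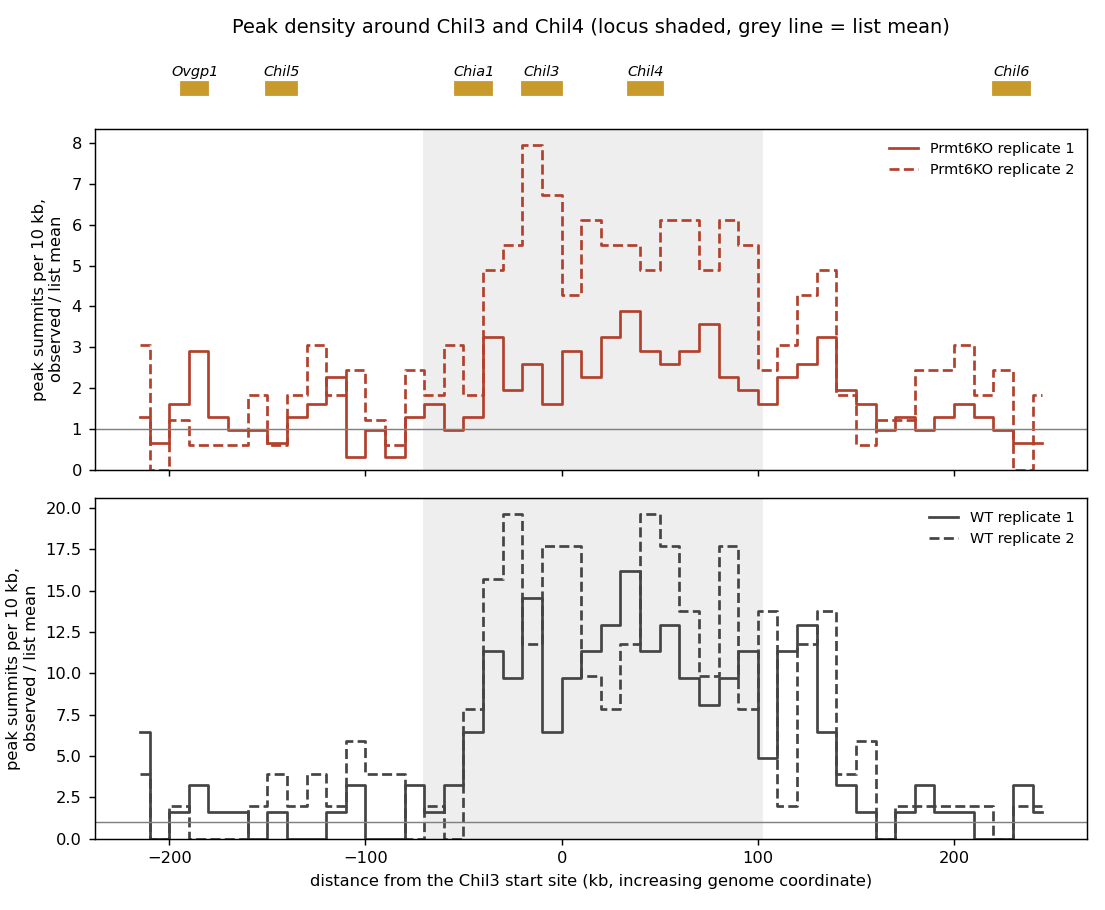
Peak summits per 10 kb, as a ratio to the mean of each list, against the distance from the Chil3 start site, for both Prmt6KO libraries (upper panel) and both WT libraries (lower panel), with genes of the chitinase family drawn to scale above. The raised stretch begins inside Chia1, spans Chil3 and Chil4 and ends beyond the shaded locus, while Ovgp1, Chil5 and Chil6 lie outside it.

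The summits of the locus were low to moderate. In Prmt6KO replicate 1 the lowest, median and highest summit held 2, 3 and 6 fragments, and in replicate 2 they held 3, 5 and 10. In Igf2bp2KO the single peak of replicate 1 had 9 fragments, and replicate 2 had 9, 9 and 11. In WT replicate 1 the values were 4, 7 and 13, and in replicate 2 they were 5, 6 and 12. Relative to the own background the highest summits stood at 8.15 and 8.27 times in Prmt6KO, 6.20 and 8.24 times in Igf2bp2KO, and 8.90 and 8.34 times in WT. The log2 difference of Prmt6KO from WT was -0.07, less than a single fragment at these heights (two-sided exact permutation p = 0.3333, the smallest possible). This test too is not independent of the choice of the locus. The log2 difference of Igf2bp2KO from WT, not tested, was -0.27. In the authors' deposited fold enrichment, which is taken on the scaled pileup, the highest summits were 4.03 and 4.98 in Prmt6KO, 2.49 and 3.08 in Igf2bp2KO, and 5.69 and 5.33 in WT, and the log2 difference of Igf2bp2KO from WT was -0.99.

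In their own lists the tallest peaks of the locus ranked high in Prmt6KO and WT. Peaks at least as tall made up 1.88% and 0.226% of the Prmt6KO lists and 0.306% and 0.309% of the WT lists, but 99.5% and 57.6% of the Igf2bp2KO lists, which hold tall peaks in the main. A q of 0.05 or below was reached by 0 of 130 and 16 of 142 peaks of the locus in Prmt6KO (11.3% in replicate 2), by 0 of 1 and 0 of 4 in Igf2bp2KO, and by 11 of 103 and 11 of 106 in WT (10.7% and 10.4%). In the entire lists the share was 0.497% and 1.34% in Prmt6KO, 10.9% and 7.62% in Igf2bp2KO, and 3.05% and 2.03% in WT. The 4 tallest peaks of Prmt6KO replicate 1, at 8.15 times its background, had a q of 0.0656.

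Counted at the same relative height, peaks were most numerous in Prmt6KO and fewest in Igf2bp2KO. At 6 times the own background or more, a height that all 6 lists could hold, there were 24 and 16 peaks in Prmt6KO, 1 and 4 in Igf2bp2KO, and 11 and 11 in WT. The mean density of such peaks gives 3.87 and 0.378 in Prmt6KO, 0.0625 and 0.0724 in Igf2bp2KO, and 0.324 and 0.178 in WT. The expected numbers of the 2 Prmt6KO libraries differ far more than their counts do. An equal multiple is not equal evidence, since 5 fragments reach this height in Prmt6KO replicate 1, against 8 in replicate 2 and 9 in both WT libraries. None of the 24 peaks of Prmt6KO replicate 1 had a q of 0.05 or below. Such a q was reached by 16 peaks in Prmt6KO replicate 2 and by 11 and 11 in WT. The higher count of Prmt6KO replicate 1 thus rests on peaks above that q.

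**Figure D4:**
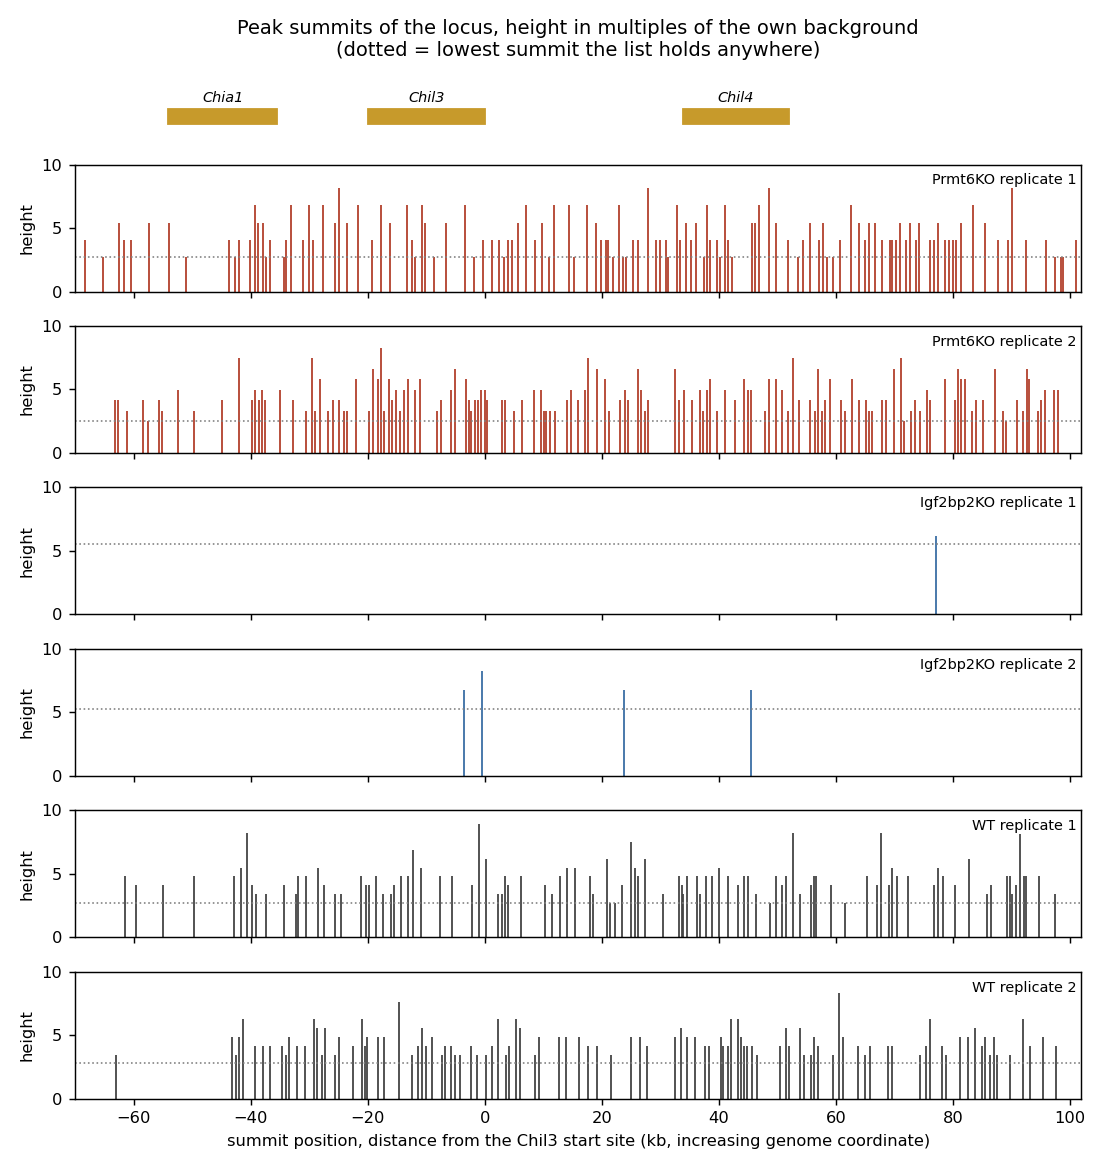
Every peak summit of the locus by distance from the Chil3 start site, one panel per library, with height in multiples of the own background and a dotted line at the lowest summit that the list holds anywhere. Prmt6KO and WT summits spread over both genes and the sequence around them, and the 1 and 4 Igf2bp2KO summits stand above a dotted line that lies higher than most Prmt6KO and WT summits.

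The start regions printed above carried peaks in WT and Prmt6KO. At Chil4, a peak over the printed bases held 3 and 4 fragments in Prmt6KO (chr3:106219048-106219769 and chr3:106219204-106219702), none was listed in Igf2bp2KO, and WT peaks held 12 and 6 fragments (chr3:106219398-106220318 and chr3:106219407-106219831). These are 4.07 and 3.31 times the background in Prmt6KO, against 8.21 and 4.17 times in WT. All 4 peaks overlapped one another at this place, but their summits did not coincide: that of WT replicate 1 lay 652 bp before the start and that of replicate 2 lay 70 bp before it, while those of Prmt6KO lay 51 and 118 bp after it. Of these peaks, that of WT replicate 1 had a q of 5.69e-05, and the other 3 had q values of 0.941 or more. Prmt6KO replicate 2 had a further peak outside the printed bases but within the WT replicate 1 peak (chr3:106219992-106220293). It held 9 fragments, 7.44 times the background, with a q of 0.00474. Its summit (chr3:106220172) lay close to that of WT replicate 1 (chr3:106220131), which is also outside the printed bases. Prmt6KO replicate 1 had no peak at that summit. The lower Prmt6KO replicate 2 value thus holds for the printed bases only.

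At Chil3, Prmt6KO replicate 2 had 2 peaks over the printed bases, with 6 and 5 fragments (chr3:106167389-106167656 and chr3:106167802-106168310), and replicate 1 had none. WT replicate 1 had a peak of 9 fragments (chr3:106167353-106167914, q of 0.0192) and WT replicate 2 one of 5 (chr3:106167528-106167746, q of 1.00). Igf2bp2KO replicate 1 had none, and the tallest Igf2bp2KO peak of the locus stood close by in replicate 2, with 11 fragments, 8.24 times the background, at chr3:106166989-106167201. Its summit was 500 bp inside the gene. No WT peak overlapped it, whereas Prmt6KO peaks of 3 and 6 fragments did, and the q of this Igf2bp2KO peak was 1.00.

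Both ends of a gene with 1 kb either side form its gene-end windows. Chil4 had 4 and 6 peaks in these windows in Prmt6KO, 0 and 0 in Igf2bp2KO, and 7 and 5 in WT. By the rule of peaks in both WT lists and in neither Igf2bp2KO list, Chil4 counts as lost, as do 3.31% of 21631 protein-coding genes. Of the 770 genes with peaks in these windows in both WT lists, 716 count as lost, so nearly all such genes share this call. Chil3 had 2 and 5 peaks in its windows in Prmt6KO, 0 and 1 in Igf2bp2KO, and 4 and 5 in WT, so a single peak in 1 library keeps it from that call. Of the 10 genes of the chitinase family, 6 were called in these windows in both Prmt6KO lists (29.0% of all genes), 0 in both Igf2bp2KO lists (0.208%) and 3 in both WT lists (3.56%), namely Chia1, Chil3 and Chil4. The locus was chosen through these calls of Chil4, and Chia1 and Chil3 lie within it. The WT and lost calls of these 3 genes are therefore not read as a result about the family. Chia1 and Chil4 counted as lost in Igf2bp2KO and 0 as lost in Prmt6KO (0.425% of all genes), while Chil6 and Chit1 counted as gained in Prmt6KO (18.6%). The WT peaks in the Chil4 windows reached at most 12 and 8 fragments, and Igf2bp2KO lists hold no summit below 8 and 7 fragments. A Chil4 body peak of 9 fragments stood in Igf2bp2KO replicate 2 (chr3:106212886-106213150), and overlapped peaks of both Prmt6KO lists and of WT replicate 2.

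Peaks of different libraries met at many places of the locus. Of the Prmt6KO replicate 1 peaks 66.2% overlapped a peak of replicate 2 by at least 1 bp (86 of 130, 95% Wilson interval 57.7 to 73.7), and 62.0% the other way (88 of 142, 53.8 to 69.5). Of the WT replicate 1 peaks 58.3% overlapped one of replicate 2 (60 of 103, 48.6 to 67.3), and 56.6% the other way (60 of 106, 47.1 to 65.6). The peak of Igf2bp2KO replicate 1 met none of the 4 of replicate 2. Between genotypes, 46.9% to 50.8% of Prmt6KO peaks overlapped a peak of a given WT list, fewer than met the other Prmt6KO list, and 58.5% to 67.9% of WT peaks overlapped one of a given Prmt6KO list, at least as many as met the other WT list. The Prmt6KO lists cover more of the locus than the WT lists, so these shares are not on equal terms. The intervals cover counting error alone.

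A summit is a single position, so the share of summits that fall inside the peaks of another list can be set beside the share of the locus those peaks cover. Of Prmt6KO replicate 1 summits 40% lay in peaks of replicate 2, which cover 34.5% of the locus, and 33.1% of replicate 2 summits lay in peaks of replicate 1, which cover 28.0%. Of WT replicate 1 summits 32.0% lay in peaks of replicate 2, which cover 23.3%, and 32.1% of replicate 2 summits in peaks of replicate 1, which cover 22.0%. Summits of one library thus fell inside peaks of the other slightly more often than its covered share, by 5.1 to 10.1 percentage points. The covered share is that of the whole locus, and coverage is uneven within it. In WT replicate 1 peaks cover 10.8% of the Chil3 side flank and 39.1% of Chil4. The comparison does not adjust for this, and no interval is given for it. Of the taller peaks, those of at least 6 times the own background, 19 of 24 and 13 of 16 overlapped any peak of the other Prmt6KO list, and 7 of 11 and 6 of 11 any peak of the other WT list. The summit itself lay inside a peak of the other Prmt6KO list for 12 of 24 and 9 of 16 (50% and 56.25%). In WT this held for 3 of 11 in replicate 1 (27.3%), above the covered share of 23.3%. It held for 2 of 11 in WT replicate 2 (18.2%), below the covered share of 22.0%. When the other list was also restricted to such peaks, which leaves few to meet, 3 of 24 and 3 of 16 overlapped between the Prmt6KO replicates, and 0 of 11 and 0 of 11 between the WT replicates.

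Joined where they overlap, the 486 peaks formed 158 regions. Peaks were joined in a chain, so those of a region need not all overlap one another. No number of shared regions expected from coverage alone was computed. Of the 158 regions, 48 came from a single library, 37 from 2 libraries, 32 from 3, 40 from 4 and 1 from 5. Both Prmt6KO lists were present in 69 regions, both Igf2bp2KO lists in 0 and both WT lists in 58. All 4 lists of Prmt6KO and WT were present in 38. A further 13 regions had both Prmt6KO lists and neither WT list, and 4 had both WT lists and neither Prmt6KO list. The region of 5 libraries is the Chil3 start (chr3:106166775-106168310), where the highest summits held 3 and 6 fragments in Prmt6KO, 0 and 11 in Igf2bp2KO, and 9 and 5 in WT. Its Igf2bp2KO peak overlapped Prmt6KO peaks but no WT peak, so it is not a single site shared by all 5.

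The highest peak of each library stood at a different place. In Prmt6KO replicate 1, peaks of 6 fragments stood in the Chil3 side flank, between the genes, in Chil4 and beyond it. In Prmt6KO replicate 2 the highest, of 10 fragments, lay within Chil3 (chr3:106149668-106150016, q of 0.000606), where Prmt6KO replicate 1 had 5 fragments and the WT libraries 5 and 7. In WT replicate 1 it had 13 fragments and lay 1.0 kb inside Chil3 (chr3:106166199-106166743, q of 6.41e-06), where the overlapping Prmt6KO peaks held 0 and 5 fragments and that of WT replicate 2 held 5. In WT replicate 2 it had 12 fragments and lay beyond Chil4 (chr3:106227949-106228286, q of 5.98e-05), where the Prmt6KO libraries had 3 and 5 and WT replicate 1 had none. The peak of Igf2bp2KO replicate 1 lay beyond Chil4 as well (chr3:106244547-106244761), where a peak of 8 fragments stood in WT replicate 1 and none in the other 4 lists.

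The chitinase family was compared gene by gene. With 1 kb either side, all 10 listed family genes had a peak in both Prmt6KO libraries, where 73.0% of protein-coding genes did, 0 of 10 in both Igf2bp2KO libraries, where 0.356% did, and 7 of 10 in both WT libraries, where 38.6% did. The 7 were Chia1, Chil3, Chil4, Chil5, Chil6, Chit1 and Ctbs. Of these 7, 5 were absent from both Igf2bp2KO lists, all but Chil3 and Chil4. Among all protein-coding genes, 8209 of the 8342 called in both WT lists were absent from both Igf2bp2KO lists (38.0% of all genes). Of the 7, 0 were absent from both Prmt6KO lists (0.157% of all genes). Chil1 was called in Prmt6KO and absent in WT (15.3% of all genes). In WT, counts by gene set Chia1, Chil3 and Chil4 apart from the other 7. These genes are neighbours in the locus, which was chosen through WT peaks of Chil4, so this is not independent of that choice. With 1 kb either side, Chil3 had 15 and 20 peaks in WT, where the list mean gives 1.36 and 1.12, and Chil4 19 and 18, where it gives 1.23 and 1.02. Chil5 and Chil6, further chitinase-like genes on the same chromosome, had 1 and 2 and 2 and 1 peaks in WT, and 7 and 2 and 6 and 4 in Prmt6KO. Ovgp1, which encodes an oviduct glycoprotein, had 13 and 1 peaks in Prmt6KO and 3 and 0 in WT. In Prmt6KO replicate 1 this is 2.70 times the list mean, above Chil3 at 1.91 and Chia1 at 1.72 and below Chil4 at 3.08, so in that library the 3 genes did not stand apart. In Prmt6KO replicate 2 Ovgp1 was at 0.392 times the list mean, against 6.95 for Chil3, 3.24 for Chia1 and 5.81 for Chil4. The lysosomal chitobiase gene Ctbs had 6 and 2 in Prmt6KO and 1 and 1 in WT, and Chit1, which encodes chitotriosidase, had 18 and 4 in Prmt6KO and 1 and 2 in WT. Chil1, which encodes the chitinase-like protein BRP-39, had 2 and 1 in Prmt6KO and 0 and 0 in WT, and Chid1 had 15 and 4 in Prmt6KO and 1 and 0 in WT. Igf2bp2KO lists held 0 peaks at each of these 7 genes outside the locus.

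Genes of alternative macrophage activation, the setting in which Ym1 is best known, were not called more often than all genes. Of 16, 10 had a peak in both Prmt6KO libraries (73.0% of all genes), 0 in both Igf2bp2KO libraries (0.356%) and 4 in both WT libraries (38.6%). The 4 were Mrc1, which encodes the mannose receptor, with 35 and 17 peaks in Prmt6KO and 13 and 12 in WT; Pdcd1lg2, which encodes the checkpoint ligand PD-L2, with 25 and 13 in Prmt6KO and 6 and 5 in WT; the lipoxygenase gene Alox15, with 13 and 4 in Prmt6KO and 3 and 2 in WT; and Stat6, with 7 and 0 in Prmt6KO and 1 and 1 in WT. Mrc1 spans a long body where the list mean gives 32.3 and 17.1 in Prmt6KO and 6.46 and 5.33 in WT. Arginase gene Arg1 had 3 and 0 peaks in Prmt6KO and 2 and 0 in WT, and the resistin-like gene Retnla had 2 and 1 in Prmt6KO and 1 and 0 in WT.

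Chil3 and Chil4 were each nearest to the other among genes of like length. Likeness was the Euclidean distance over the 6 libraries in log2 of the highest summit in multiples of the own background, a library without a peak being set to 0, among 7881 protein-coding genes of 0.5 to 2 times the length of Chil3. The distance between Chil3 and Chil4 was 0.52. Next to Chil3 came Vmn2r35 (1.10), Plag1 (1.15), Gm14590 (1.41) and Serpinb2 (1.79). Next to Chil4 came Vmn2r35 (0.84), Gm14590 (1.09), Serpinb2 (1.55) and Chia1 (2.77). Apart from Chia1, each of these has a peak in Igf2bp2KO replicate 2 and none in replicate 1, as Chil3 and Chil4 do, and that pattern weighs heavily in the distance. None of these genes outside the locus had the peak numbers of Chil3 or Chil4 in WT: Vmn2r35, a vomeronasal receptor gene, had 7 and 7, Gm14590 2 and 8, Serpinb2, which encodes an inhibitor of plasminogen activators, 5 and 3, and Plag1, a zinc finger transcription factor gene, 4 and 3.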

How the data were processed

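Peak lists of H3R2me2a ChIP-seq were analysed for 6 libraries (2 per genotype), grouped by sample title. Per the submitters' processing notes the authors used bcl2fastq 2.17, Trim Galore, HISAT2, MACS2 2.1.0 and bedtools with build mm10; settings are not given in the sources used here. Peaks were called per library, as each deposited list shows. The deposited fold enrichment is a ratio of signal to background at the summit, beside -log10 p-values and -log10 q-values in the authors' narrowPeak layout. The summit pileup, a coverage signal, came from the companion tables per the file headers, whose positions equalled those of the lists. Pileups were whole fragments in Prmt6KO and WT; in Igf2bp2KO they were divided by the step found in the values (0.277 and 0.302). The background of a list was solved from pileup and fold enrichment. Library totals are not given, so depth is known only through that background.

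Computed with Python 3.11.15, numpy 2.4.6, pandas 2.3.3, statsmodels 0.14.6 and Biopython 1.88: counts, covered length, overlap (at least 1 bp), expected peaks from the mean of each list over chromosomes 1 to 19 and X (each taken to end at its last peak), and exact permutation tests over libraries. A peak that crosses a border between segments counts in both. Functions were tested on simulated data. Named were Chil3, Chil4, all RefSeq genes of the locus, the genes of 2 lists, the 5 genes nearest to each of Chil3 and Chil4, and the highest peaks of each library. The locus, gene lists and measures were chosen with earlier results of these data known. No genome sequence was used, so sequence of peaks away from the start regions is not shown.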

Additional observations from a re-analysis of the deposited data

How the results depend on the processing

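The mean Prmt6KO difference from WT in relative density stayed below 0 under every alternative run, between -2.13 at a q of 0.05 or below and -0.46 in lists of equal length with ties by position (-1.57 as reported), and between -2.09 (without Prmt6KO replicate 2) and -1.06 (without Prmt6KO replicate 1) with a library left out. The groups overlapped for peaks with q up to 0.05, with 4-fold enrichment or more, and at 6 and 5.51 times the background, where Prmt6KO replicate 2 lay above both WT libraries (exact permutation p = 1 each), so the sign there rests on Prmt6KO replicate 1; ties by position gave p = 0.6667. Covered share likewise ran from -1.66 to -0.48, and from -2.21 to -0.97 with a library left out; at a q of 0.05 or below it had no value, since Prmt6KO replicate 1 had no such peak. The highest summit of Prmt6KO turned to 0.0414 with 100 kb either side and stayed between -0.12 and -0.02 with a library left out. The density of Igf2bp2KO against WT turned to 1.38 without an added count, and was -2.13 with 25 kb either side, -3.98 for peaks of 4-fold enrichment or more and -3.96 for those with q up to 0.05, with -1.96 to -0.42 when a library was left out. Its highest summit was -0.99 in deposited fold enrichment, the median summit turned to 0.53, and -0.48 to -0.06 was the range with a library left out.

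With an overlap of at least 50% of both peaks, sharing fell to 16.2% between Prmt6KO replicates, 14.4% between WT replicates, 15.6% for Prmt6KO peaks in WT lists and 0% for Igf2bp2KO peaks in WT lists (64.0%, 57.4%, 49.4% and 20% as reported, pooled). With both lists restricted to 6 times the background it was 15%, 0%, 5% and 0%, and to 5.51 times, the lowest height that every list could hold, 31.0%, 0%, 6.90% and 0%; fewer peaks to meet lower these shares by construction. Peaks of 6 times the background set against the entire other list gave 80%, 59.1%, 56.3% and 20%. With gene-end windows alone 6 (Prmt6KO) and 3 (WT) chitinase family genes and 5 and 0 macrophage genes were called, at a q of 0.05 or below 0 and 3, and 0 and 0, and with 5 kb either side 8 macrophage genes in WT. With a library left out the family counts were 10 to 10 in Prmt6KO, 0 to 2 in Igf2bp2KO and 7 to 9 in WT, and the macrophage counts 10 to 16, 0 to 0 and 5 to 9. No share of all genes is given for the q rule, the 5 kb rule or a library left out. Those counts are therefore not read as results about the lists. The settings without an added count, with random ties, at 5.51 times and against the entire other list were chosen after seeing the data.

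The labels number replicates alike in all genotypes without saying that a number marks a shared source. With the replicate block the Prmt6KO differences were -1.57 for density, -0.07 for the highest summit and -1.59 for coverage (exact sign-flip p = 0.5 each, the smallest that 2 pairs allow), and those of Igf2bp2KO -1.19 and -0.27. Deviations from the group mean over 1 Mb windows correlated at 0.42 between Prmt6KO and WT and at 0.05 between Igf2bp2KO and WT, and 2 pairs do not decide a pairing. Igf2bp2KO lists hold no summit under 8 and 7 fragments although their backgrounds are close to those of WT; their pileups are scaled, and the cause of the higher minimum was not tested.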

Other observations

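The dense stretch does not end with the 50 kb chosen around the genes. Taking bins of 10 kb with a mean of at least 3 summits over the WT libraries, a rule set after the profile was seen, the longest unbroken run was 190 kb (chr3:106117554-106307553). It begins within Chia1 and takes in the pseudogene Gm6522 beyond Chil4 (chr3:106275744-106299027). Per 10 kb the run held 7.95 and 8.32 summits in Prmt6KO, 0.0526 and 0.263 in Igf2bp2KO, and 6.42 and 6.63 in WT. In the 100 kb on its lower side there were 3.50 and 3.10 in Prmt6KO, 0 and 0 in Igf2bp2KO, and 0.90 and 1.40 in WT, and in the 100 kb on its upper side 3.90 and 2.80, 0 and 0, and 1.00 and 1.10. The mean of the run was above that of both sides in each Prmt6KO and WT library, although the run was chosen on the WT lists. At the lower end itself Prmt6KO showed no clear step. The last 10 kb outside held 3 and 5 summits in Prmt6KO and 2 and 0 in WT, and the first 10 kb inside 4 and 3, and 4 and 4. The 1 and 5 Igf2bp2KO summits of these 390 kb all fall inside the run. The cause of the higher density in the run was not tested.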
